A study of Rattus norvegicus with 12 samples.

Results

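The cytochrome P450 genes measured in the small intestine of Belgrade rats are described here, together with Por, the reductase that supplies most of their electrons. Members were all probe sets that the array's annotation ties to a single gene with a P450 symbol, or to Por, and whose scaled signal averaged at least 100 over the 12 arrays. Cyp51, a cholesterol synthesis gene, and the vitamin D hydroxylase Cyp24a1 were left out by this rule. Of 68 probe sets with 1 P450 gene or Por, 29 passed, and they stood for 26 of the 10067 genes with a probe set of 1 gene among the 17694 probe sets tested. Cyp2d4, Cyp2j3 and Por each had 2 probe sets, called the brighter and the dimmer below. A further 37 probe sets, all those of 32 genes, were below the minimum, and 2 belonged to Cyp51. Another 7 probe sets annotated to several P450 genes were not used, among them a bright one of the pair Cyp2b1 and Cyp2b2 with a mean of 10610. The dimmest member was Cyp2c11 with a mean of 114, and the brightest probe set just below the minimum was Cyp2c7 with 98.2. Because 6 members had a lowest group mean under 100, and 10 probe sets below the minimum had a highest group mean of 100 or more, the dim end of the family is sampled unevenly.

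Belgrade rats carry a recessive mutation of Slc11a2, the gene of the intestinal iron transporter DMT1, and the study compared homozygotes (b/b) with heterozygotes (+/b). All groups therefore carried at least 1 mutant allele, and no wild-type rats were analysed here. Scrapes of the duodenum and of the jejunum were taken from 3 groups of rats per genotype, and each array holds RNA of 1 group of rats from 1 segment. This gave 12 arrays in 4 groups of 3: +/b duodenum, b/b duodenum, +/b jejunum and b/b jejunum. The sources used here do not give the age or sex of the rats, how many made up a group, or any diet or treatment. The replicate is a group of rats, so p-values of the fit without a block measure the spread between such groups. Where the group of rats is fitted as a block, p-values between the segments measure how the jejunum-duodenum difference varies between groups.

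P450 enzymes are heme proteins that insert 1 atom of molecular oxygen into a substrate. For most of them, though not all, electrons are passed on by Por and, for some reactions, by cytochrome b5. Members of families 1 to 3 oxidise drugs, dietary compounds and steroids, those of family 4 hydroxylate fatty acids and eicosanoids, and others build bile acids and steroid hormones. In the gut they are known mainly from the mature enterocytes of the villus, where they act on swallowed compounds before these reach the liver.

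Sequence is shown for Cyp2s1, lower in the jejunum and called in b/b rats, and for Cyp2j3, whose brighter probe set lay higher in the jejunum without being called. For Cyp2s1 these are the 250 bases before its RefSeq start site (build GRCr8), read 5′ to 3′ on the gene's strand. For Cyp2j3 they are 72 bases beyond the outermost end of the annotated gene, since the rest of its window lies inside the gene. Capitals mark a match to the 3 motifs searched on both strands, GCGTG (the core bound by the aryl hydrocarbon receptor), ACGTG (the core bound by hypoxia-inducible factors) and AGGTCA (a site bound by nuclear receptors). In Cyp2s1 the capitals are AGGTCA on the other strand, and the Cyp2j3 window of 300 bases holds none of the 3.
Cyp2s1 at chr1:90453074-90453323, minus strand: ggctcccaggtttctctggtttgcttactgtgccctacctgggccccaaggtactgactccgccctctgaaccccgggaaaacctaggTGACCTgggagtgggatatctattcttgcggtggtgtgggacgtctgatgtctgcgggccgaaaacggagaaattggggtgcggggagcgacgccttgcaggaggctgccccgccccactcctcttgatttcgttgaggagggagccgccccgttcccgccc
Cyp2j3 at chr5:116360678-116360749, minus strand: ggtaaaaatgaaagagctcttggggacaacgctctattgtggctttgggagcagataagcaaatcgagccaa

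A promoter was found for 22 of the 26 genes, not for Cyp17a1, Cyp1a1, Cyp2c6v1 and Cyp4a1. Over windows of 300 bases that reach 50 bases past the start, GCGTG occurred in 7 of the 22 against 29.7% of 33469 promoters. ACGTG occurred in 4 of the 22 (Cyp2j4, Cyp2t1, Cyp3a9 and Cyp8b1) against 19.2%, and AGGTCA in 7 against 16.2%. The motifs do not overlap in letters apart from the CGTG that GCGTG and ACGTG share. A match describes letters only. Several members lie side by side on the RefSeq map: no other protein-coding gene separates Cyp2j4 from Cyp2j3, Cyp4a3 from Cyp4a1, Cyp4a1 from Cyp4b1, Cyp4f1 from Cyp4f6, or Cyp2d3 from Cyp2d2. Close relatives within the 2c, 2d, 2j, 4a and 4f subfamilies can share probe matches, so their separate values are uncertain.

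Of the deposited arrays, 10 had a 2% trimmed mean of 500.2, and +/b duodenum replicates 2 and 3 had 51.6 and 126.6, so all arrays were scaled to 500. After scaling, b/b duodenum replicate 1 stood apart, its Spearman correlations with the remaining arrays having a median of 0.836, against 0.875 to 0.918 for each of those. Enterocyte markers were well measured, 12 of 14 being on the array and all 12 above the minimum. Their summed signal ran from 197800 to 723700. Markers of the exocrine pancreas summed to 200600 on +/b duodenum replicate 2 and 13560 on b/b duodenum replicate 3, against 5349 to 8863 on the other duodenum arrays and 2233 to 4534 in the jejunum. In bulk tissue, fewer cells of a type and less RNA per cell cannot be told apart.

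Differences are given on the scale of log2(signal + 16) with the standard error (SE) of limma's fit, n = 3 arrays per group, and a probe set is called when its Benjamini-Hochberg adjusted p over all probe sets tested is under 0.05. Groups are said to be apart when every array of one lies above every array of the other. Without a block for the groups of rats, the b/b jejunum gave the only P450 call: Cyp2s1 was 3.71-fold lower there than in the b/b duodenum. Each group of rats gave both segments, and with that block Cyp4b1, Cyp3a18 and Cyp2d2 were called there too. These made 4 of 29 members, against 2.44% of all probe sets. No member was called between the genotypes in either segment or between the segments of +/b rats.

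Jejunum and duodenum of b/b rats differed in 1 of 29 members, Cyp2s1, against 0.763% of all probe sets called. Differences lay above 0 for 17 members and below 0 for 12, with a median of 0.14 beside 0.07 over all probe sets, and 3 members had an unadjusted p under 0.05. The groups were apart for 3 members, Cyp2j3 (brighter) and Cyp2u1 higher and Cyp2s1 lower in the jejunum, against 14.8% of all probe sets. Each group of rats gave both tissues, and with the group of rats as a block 4 members were called (Cyp2s1, Cyp4b1, Cyp3a18 and Cyp2d2), against 2.44% of all probe sets. With the replicate number as a block across all 4 groups 2 were called, Cyp2s1 and Cyp4b1, against 2.25%. Beside these values all 7 crypt markers lay above 0 (median 0.96) and all 16 exocrine pancreas markers below 0 (median -1.09), while 7 of 8 smooth muscle markers lay above 0 (median 0.51) and 10 of 12 enterocyte markers below 0 (median -0.14). None of them was called, and their part in the P450 values was not tested.

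In +/b rats none of the 29 members was called between the segments, against 0.0565% of all probe sets in limma, and none with the block of rats (0.486% of all probe sets) or of replicate number or with array weights. The lowest adjusted p was 0.689, or 0.174 with the rat block, and 3 members had an unadjusted p under 0.05 (Cyp1a1, Cyp2j3 brighter and Cyp2s1). The groups were apart for 8 members, 7 of them lower in the jejunum, a share of 27.6% against 10.8% of all probe sets. The median difference of the members was -0.13, beside 0.05 over all probe sets, with 21 members below 0 and 8 above. Of the 12 enterocyte markers 10 also lay below 0, with a median of -0.37, as did all 16 exocrine pancreas markers, with a median of -2.40. All 7 crypt markers lay above 0, with a median of 0.65, and no marker of these lists was called. The part that these marker levels have in the P450 values was not tested.

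**Figure D1:**
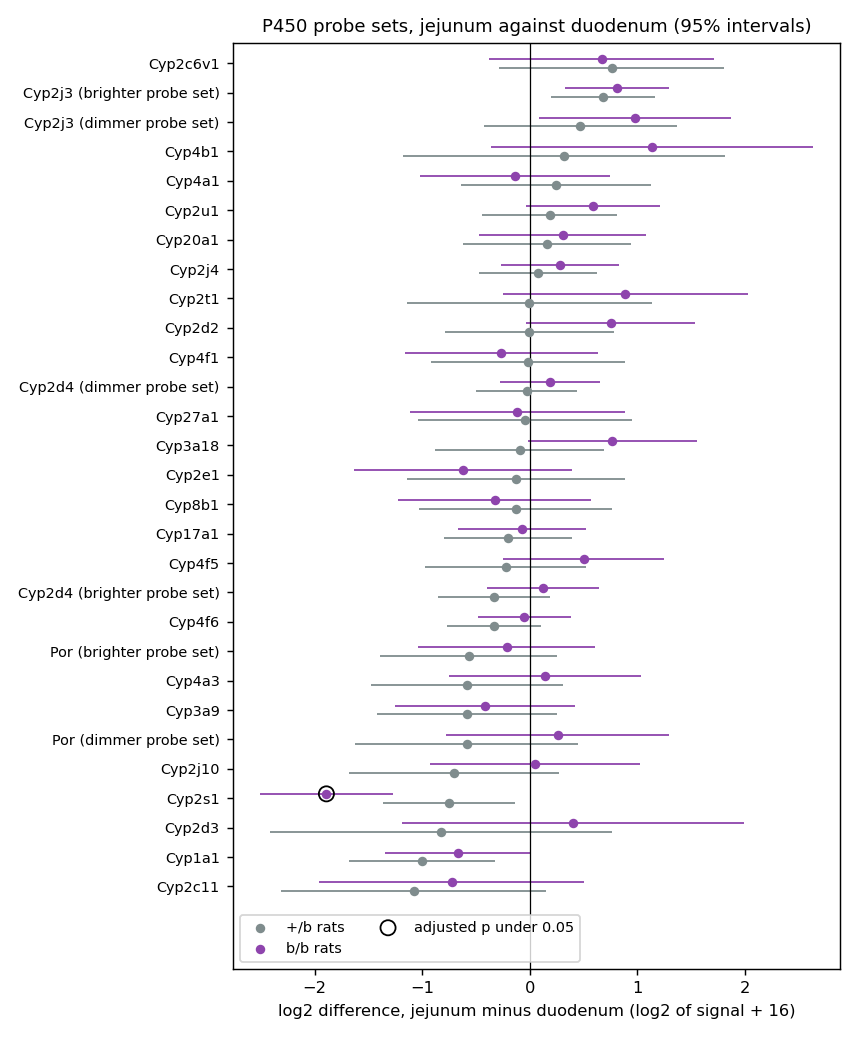
Log2 difference of jejunum against duodenum for each of the 29 P450 and Por probe sets, in +/b and in b/b rats, with bars for the 95% confidence interval of the limma fit. Cyp2s1 lies lowest in b/b rats at -1.89, while both Cyp2j3 probe sets lie above 0 in both genotypes.

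Family 2 was the largest group, with 14 probe sets of 12 genes. Cyp2s1, an epithelial P450 known outside the liver and inducible through the aryl hydrocarbon receptor, had signals of 2036, 2924 and 2137 in the b/b duodenum and of 550.1, 505 and 847 in the b/b jejunum. In +/b rats it had 1089, 1559 and 1480 in the duodenum against 504, 1078 and 940.3 in the jejunum. In both genotypes every duodenum array lay above every jejunum array. The b/b difference between the segments was -1.89 ± 0.29 (95% interval -2.51 to -1.27), and Cyp2s1 fell from 2366 ± 487 to 634 ± 186 (SD) with a limma adjusted p of 0.00668.

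The Cyp2s1 call had a limma adjusted p of 0.000856 with the rat block and 0.000609 with the block of replicate number. It was lost without b/b duodenum replicate 2 (-1.73, limma adjusted p = 0.0532) or without b/b jejunum replicate 2 (-1.75, adjusted p = 0.0563). It was as large without b/b duodenum replicate 1, the array that stood apart (-1.99, limma adjusted p = 0.00971), and without both arrays of highest pancreas signal (-1.95, adjusted p = 0.0318). In +/b rats the difference was -0.75 ± 0.29 (limma adjusted p = 0.826, or 0.233 with the rat block). The duodenum of b/b rats was also 1.71-fold above that of +/b rats for Cyp2s1, 0.77 ± 0.29 with the groups apart, at an unadjusted p of 0.0176 and a limma adjusted p of 0.788. In the jejunum the genotype difference was -0.37 ± 0.29, with overlapping groups. The difference between the genotype effects of the segments, jejunum minus duodenum, was -1.14 ± 0.41 (95% interval -2.01 to -0.27) at an unadjusted p of 0.0142, which missed the threshold after adjustment (limma adjusted p = 0.9999, or 0.965 with the rat block).

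Cyp2j3, an epoxygenase of arachidonic acid, had brighter signals of 1243, 1529 and 1157 in the +/b jejunum and of 1134, 1310.1 and 1174 in the b/b jejunum. Its duodenum signals were 649.6, 841 and 956 in +/b and 934, 541 and 624 in b/b rats. The 6 jejunum arrays all lay above the 6 duodenum arrays on this probe set. The jejunum difference was 0.68 ± 0.22 in +/b rats (limma adjusted p = 0.704) and 0.81 ± 0.22 in b/b rats (adjusted p = 0.172, or 0.0811 with the rat block). It was called in b/b rats without the array that stood apart (1.03, limma adjusted p = 0.0353) and with array weights (1.05, adjusted p = 0.00542). The dimmer probe set had differences of 0.47 ± 0.42 and 0.98 ± 0.42, the same direction with overlapping groups, and its highest +/b duodenum array was replicate 2 at 780.1.

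The neighbour Cyp2j4, a bright probe set also tied to arachidonic acid, had group means between 10892 and 13069, and its differences lay between -0.13 and 0.28 in all 4 pairwise comparisons. Cyp2j10 had 209, 175 and 186 in the +/b duodenum against 57.9, 124 and 100.2 in the b/b duodenum, with the groups apart. The b/b difference was -0.95 ± 0.45 (95% interval -1.92 to 0.03; limma adjusted p = 0.789). Its jejunum signals were 115, 165 and 68.9 in +/b and 141, 45.1 and 124 in b/b rats. The +/b jejunum was thus also apart from the +/b duodenum (-0.70 ± 0.45), while the b/b segments overlapped.

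Cyp2u1, a long-chain fatty acid hydroxylase, had 520.4, 309 and 342 in the b/b duodenum against 620.4, 589 and 528 in the b/b jejunum. The jejunum arrays were all higher (0.58 ± 0.29, limma adjusted p = 0.554). The +/b arrays overlapped, with 578, 739.8 and 302 in the duodenum against 566, 610.1 and 557 in the jejunum. The within-group range was far wider in the duodenum than in the jejunum: the SD was 221 and 114 against 28.4 and 46.7. The highest and lowest +/b duodenum arrays were replicates 2 and 3, which the scaling had raised 9.69-fold and 3.95-fold.

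The 2d subfamily, whose human relative handles many drugs, had 4 probe sets. Cyp2d2 had 1096, 455 and 838 in the b/b duodenum against 1688, 764 and 1592 in the b/b jejunum, each replicate number being higher in the jejunum. The difference of 0.75 was called only with the rat block (SE 0.16, limma adjusted p = 0.0302; SE 0.37 and adjusted p = 0.531 without it). In +/b rats the segments were at 1093, 631 and 703 against 1106, 635 and 684, a difference of -0.004 ± 0.37.

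The brighter Cyp2d4 probe set was the only member with an unadjusted p under 0.05 between the genotypes in the jejunum. It had 6571, 3851 and 4176 in b/b rats and 3967, 2815 and 2781 in +/b rats, with 1 +/b array above the lowest b/b array. The difference was 0.59 ± 0.24 (limma adjusted p = 0.9999), and the dimmer probe set had 0.27 ± 0.22. Cyp2d3 was dim, with +/b signals of 156, 235 and 132 in the duodenum against 125, 69.9 and 78.5 in the jejunum, which were apart (-0.83 ± 0.74). Its b/b signals ran from 5.82 to 218, and the b/b difference in the duodenum was -1.12 ± 0.74 (limma adjusted p = 0.839). The array at 5.82 was b/b duodenum replicate 2, without which that difference was -0.14.

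The other family 2 members were Cyp2c11, Cyp2c6v1, Cyp2e1 and Cyp2t1, with group means between 75.6 and 271 and no groups apart. Cyp2e1 is known for the oxidation of ethanol and other small molecules. The largest of their differences were -1.08 ± 0.57 for Cyp2c11 between the segments of +/b rats and -1.02 ± 0.53 for Cyp2t1 between the genotypes in the duodenum. For Cyp2t1 the b/b duodenum held 1 low array, replicate 1 at 28.4 against 209 and 228.

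**Figure D2:**
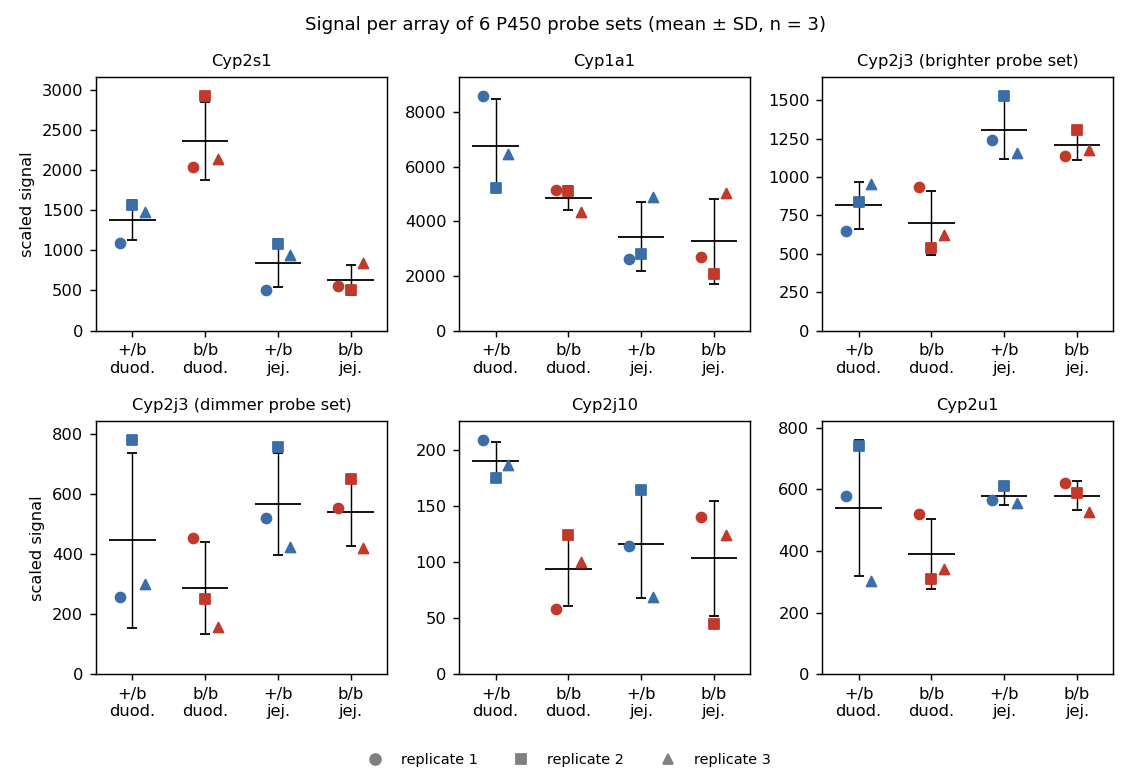
Scaled signal per array for 6 P450 probe sets, with group means and SD (n = 3 groups of rats), on linear axes that start at 0. Cyp2s1 is highest in the b/b duodenum (2036 to 2924), and the 6 jejunum arrays of Cyp2j3 (brighter) lie above its 6 duodenum arrays.

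Family 1 was represented by Cyp1a1 alone, the best known target of the aryl hydrocarbon receptor. Its +/b duodenum signals were 8595, 5236 and 6473, and its +/b jejunum signals 2633, 2794 and 4882, which were apart. The jejunum difference was -1.003 ± 0.32, or 2.004-fold lower, at an unadjusted p of 0.00668 and a limma adjusted p of 0.689 (0.211 with the rat block). In b/b rats it had 5142, 5101 and 4344 in the duodenum against 2711, 2058 and 5028 in the jejunum. There the jejunum difference was -0.67 ± 0.32 (limma adjusted p = 0.515), with replicate 3 of the jejunum inside the range of the duodenum. The b/b duodenum lay below the +/b duodenum on all 3 arrays (-0.45 ± 0.32, limma adjusted p = 0.848). Cyp1a1 and Cyp2s1 therefore stood on the same side between the segments and on opposite sides between the genotypes in the duodenum.

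Family 3 had the pair Cyp3a9 and Cyp3a18, relatives of the main drug-oxidising P450 of the human gut. Cyp3a9 had +/b signals of 38047, 24602 and 26629 in the duodenum against 22684, 21790 and 14984 in the jejunum, which were apart (-0.58 ± 0.39, limma adjusted p = 0.945, or 0.174 with the rat block). Its b/b signals overlapped, with 49037, 25478 and 16320 in the duodenum against 33034, 17573 and 14718 in the jejunum (-0.42 ± 0.39). In each of the 6 groups of rats Cyp3a9 was lower in the jejunum.

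Cyp3a18 had 7179, 4355 and 2243 in the b/b duodenum against 11042, 5959 and 5277 in the b/b jejunum, so that each group of b/b rats had the higher value in the jejunum. Its difference of 0.77 was called only with the rat block (SE 0.16, limma adjusted p = 0.0273; SE 0.37 and adjusted p = 0.525 without it). In +/b rats it had 6376, 7795 and 5785 against 6673, 7254 and 4872, a difference of -0.09 ± 0.37. The difference between the genotypes in the duodenum was -0.68 ± 0.37 (limma adjusted p = 0.805), with overlapping groups.

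Family 4 had 6 members. Cyp4b1, which acts on fatty acids and on some plant toxins, had b/b signals of 7840, 1598 and 4322 in the duodenum against 13125, 4816 and 9173 in the jejunum. The groups overlapped, but each group of rats was higher in the jejunum, and the difference of 1.14 was called with the rat block (SE 0.16, limma adjusted p = 0.00314) and with the block of replicate number (adjusted p = 0.00761). Without a block the SE was 0.70 and the limma adjusted p 0.671. In +/b rats it had 10040, 1960 and 3642 in the duodenum against 12803, 2253 and 4803 in the jejunum (0.32, SE 0.16 and limma adjusted p = 0.500 with the rat block).

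Cyp4a3, a fatty acid hydroxylase, had 273, 300.1 and 262 in the +/b duodenum against 126, 209.8 and 220.4 in the +/b jejunum, which were apart (-0.58 ± 0.42, limma adjusted p = 0.947). Its b/b signals were 393, 86.3 and 173 in the duodenum against 242, 168 and 208 in the jejunum and overlapped. Cyp4f6 was the most even member, with a pooled within-group SD of 0.23 on the log2 scale. It had +/b signals of 2172, 3165 and 2124 in the duodenum against 1894, 2061 and 1862.5 in the jejunum, which were apart by a small amount (-0.33 ± 0.20, limma adjusted p = 0.941). Its b/b segments overlapped (-0.05 ± 0.20).

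Cyp4a1, Cyp4f1 and Cyp4f5 had overlapping groups in all 4 pairwise comparisons. Cyp4f1, of a subfamily that inactivates leukotrienes, was among the brightest members, with group means between 24055 and 29551. The largest difference of these 3 was that of Cyp4f5 between the genotypes in the duodenum, -0.67 ± 0.35 (limma adjusted p = 0.798).

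Bile acid synthesis was represented by Cyp27a1, the sterol 27-hydroxylase of mitochondria, and by Cyp8b1, the sterol 12-alpha-hydroxylase. Both lay higher in b/b rats in both segments without passing the test: 0.37 ± 0.46 and 0.30 ± 0.46 for Cyp27a1, and 0.54 ± 0.42 and 0.35 ± 0.42 for Cyp8b1, all with overlapping groups. Cyp8b1 was dim, with group means from 96.3 to 160.1. Cyp17a1, which makes androgen precursors in the gonads, was a bright probe set with group means between 13474 and 15453. Its 4 pairwise differences lay between -0.20 and 0.11. Cyp20a1, a P450 of unsettled substrate, had group means between 299.9 and 417 and differences between -0.28 and 0.31. The genes of retinoic acid breakdown on the array, from the Cyp26 family, were all below the signal minimum.

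Por, the electron donor, had brighter signals of 7467, 7067 and 3692 in the +/b duodenum against 5964, 3503 and 2851 in the +/b jejunum. In b/b rats it had 9431, 4145 and 4046 in the duodenum against 6729.5, 3745 and 4007 in the jejunum. The groups overlapped in every comparison. The jejunum difference was -0.57 ± 0.38 in +/b rats (limma adjusted p = 0.946, or 0.224 with the rat block) and -0.22 ± 0.38 in b/b rats. The dimmer Por probe set had 4613, 3671 and 2793 against 4221, 2063 and 1593 in +/b rats (-0.59 ± 0.48), and 7245, 2514 and 1517 against 5354, 2688 and 3319 in b/b rats. Its b/b difference of 0.26 ± 0.48 opposed that of the brighter probe set, and neither was called.

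Between the genotypes, none of the 29 members was called in the duodenum, against 0.0396% of all probe sets, and none with either block or with array weights in limma. The lowest adjusted p was 0.788, and 1 member had an unadjusted p under 0.05 (Cyp2s1) beside 1092 of all 17694 probe sets. Of the members 21 lay below 0 in b/b rats and 8 above, with a median of -0.14, beside -0.05 over all probe sets, of which 44.5% lay above 0. The groups were apart for 3 members, Cyp2s1 higher and Cyp1a1 and Cyp2j10 lower in b/b rats, a share of 10.3% against 8.7% of all probe sets. The 12 enterocyte markers all lay below 0 too, with a median of -0.23 and none called, and 7 of 7 crypt markers lay below 0 with a median of -0.63. So did 15 of 16 exocrine pancreas markers (median -1.02), all 8 smooth muscle markers (-0.32) and all 5 liver markers (-0.70). Of the Brunner gland and goblet markers 5 of 7 lay below 0, and of the immune markers 2 of 5. The 3 blood markers lay above 0 with a median of 2.35, and 1 of them was called. The part of these cells in the P450 values was not tested. Without both arrays of highest pancreas signal the members' median was -0.01, and without b/b duodenum replicate 1 it was -0.34.

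In the jejunum none of the 29 members was called between the genotypes, against 0.0339% of all probe sets, and none with either block or with array weights. Every adjusted p in limma was 0.9999, with 1 member under an unadjusted p of 0.05. No member had its groups apart, against 7.9% of all probe sets. The median was 0.07, with 18 members above 0 and 11 below. The change of the genotype effect from duodenum to jejunum was called for none of the members and for 0% of all probe sets in limma, with 1 member (Cyp2s1) and 306 probe sets under an unadjusted p of 0.05. With the rat block 2 of all probe sets were called and no member. Of the members 22 lay above 0, with a median of 0.33 beside 0.02 (0.06 without both arrays of highest pancreas signal), and the 12 enterocyte markers all lay above 0 as well, with a median of 0.23. So did 14 of 16 exocrine pancreas markers (median 1.10), 6 of 7 crypt, 6 of 8 smooth muscle, 5 of 7 Brunner gland and goblet and all 5 liver markers. Of the immune markers 1 of 5 lay above 0, and of the blood markers 1 of 3. The part of these markers in it was not tested. The middle member had an SE of 0.39 in the jejunum and 0.55 for the change of the genotype effect.

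**Figure D3:**
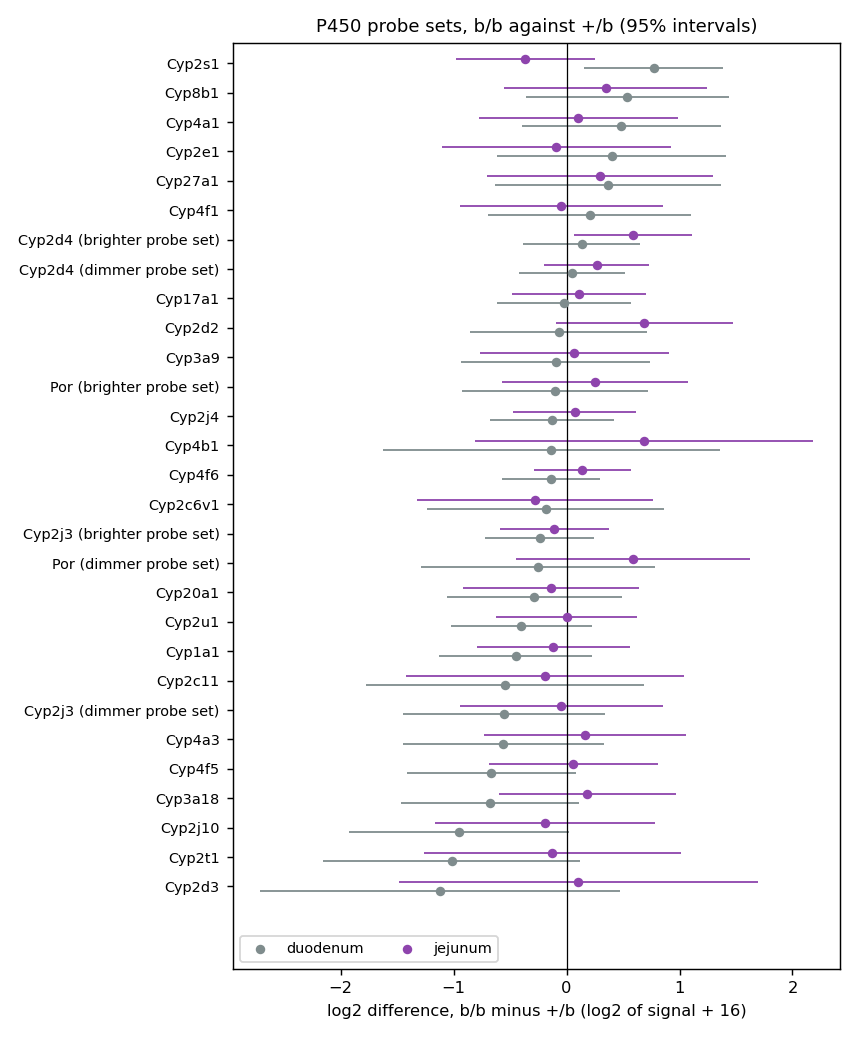
Log2 difference of b/b against +/b for each of the 29 probe sets in the duodenum and in the jejunum, with 95% confidence intervals of the limma fit. In the duodenum 21 of the 29 points lie below 0 and in the jejunum 11, and no member was called in either segment.

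The bright members varied with the replicate number. In all 4 groups replicate 1 had the highest signal for 8 of the 29 members (Cyp17a1, Cyp27a1, Cyp2d2, Cyp3a9, Cyp4b1, Cyp4f1 and both Por probe sets), a pattern that 6.98% of all probe sets showed. Among probe sets with a mean signal of 2000 or more it held for 7 of 13 members and for 17.5% of all. Replicate 2 was highest in all 4 groups for none of the members, against 2.54% of all probe sets. Replicate 3 was so for Cyp20a1 alone, against 7.29% of all. Replicate 1 of Cyp4b1 was 3.58, 2.65, 3.63 and 1.88 times the mean of the other arrays in the +/b duodenum, b/b duodenum, +/b jejunum and b/b jejunum. For Cyp27a1 the same ratios were 2.57, 2.55, 1.57 and 2.595, and for Cyp4f1 they were 2.09, 2.13, 1.52 and 1.94.

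The replicate numbers of +/b and b/b rats name different animals, so a shared number is no shared group of rats. The summed enterocyte markers ran the same way, at 541900, 476500 and 290100 in the +/b duodenum, 723700, 298600 and 206300 in the b/b duodenum, 465900, 341000 and 208700 in the +/b jejunum and 530300, 316600 and 197800 in the b/b jejunum. Summed Brunner gland and goblet markers were also highest on replicate 1 in every group, at 184200 against 107500 and 89960 in the b/b duodenum. Immune markers were so in all groups but the +/b duodenum, and smooth muscle and blood markers in all but the b/b jejunum. Crypt, liver and exocrine pancreas markers were highest on another replicate in most groups. The highest scaled signal of an array was also that of replicate 1 in every group. The part of enterocytes or of other cells in the P450 pattern was not tested. The pooled within-group SD of the members had a median of 0.54 on the log2 scale, against 0.38 over all probe sets, with Cyp4b1 the most variable at 1.10.

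**Figure D4:**
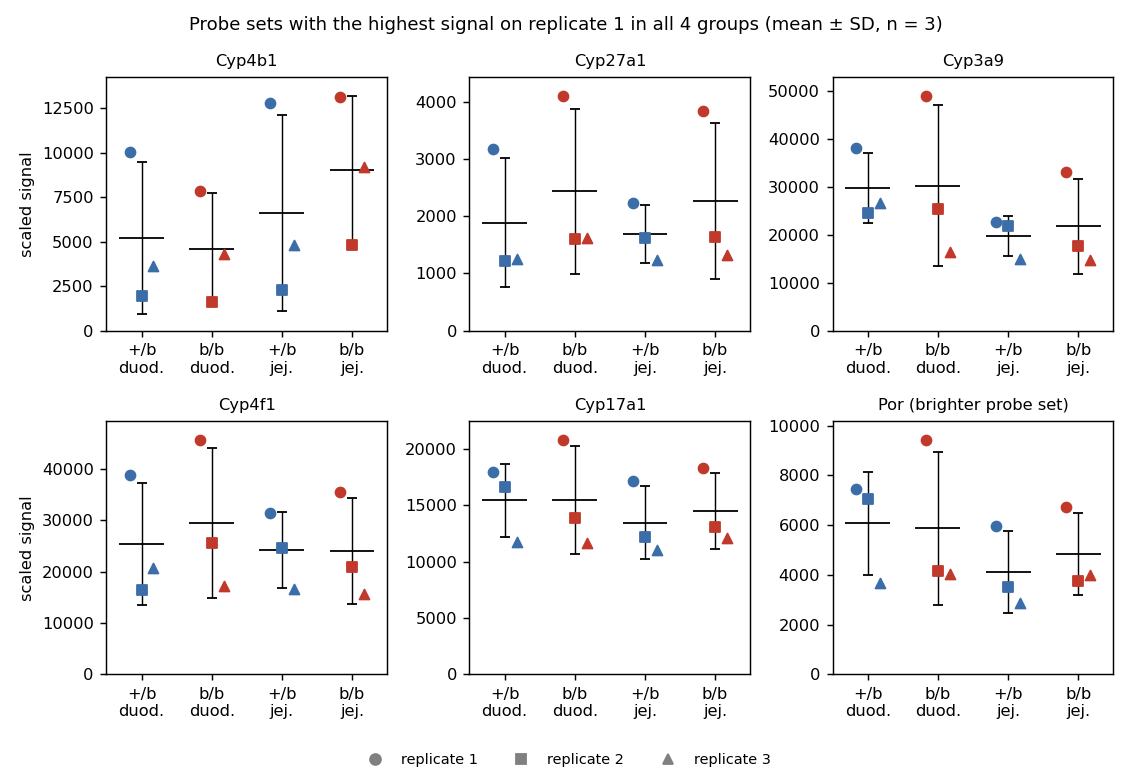
Scaled signal per array of 6 of the 8 probe sets whose highest signal was on replicate 1 in all 4 groups, with symbols for the replicate number and bars for the group mean and SD (n = 3). Replicate 1 of Cyp4b1 lies at 7840 to 13125, above the other arrays of its group each time.

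Genes that serve or control the P450 enzymes were counted on the brightest probe set of each. None of 14 redox partners and NADPH suppliers, 21 receptors and transcription factors, 4 other aryl hydrocarbon receptor targets, 16 other phase I enzymes and 13 genes of heme synthesis and breakdown was called between the genotypes in either segment. Between the segments of b/b rats the genes called were all lower in the jejunum, 1 of 14 redox genes, 1 of 21 receptors and 1 of 16 phase I enzymes, against 0.763% of all probe sets. With the rat block they were Cyb5b, Pparg, 2 of 4 aryl hydrocarbon receptor targets, 3 of 16 phase I enzymes and 2 of 13 heme genes, again all lower in the jejunum, against 2.44%. In +/b rats none was called without the block, and Cyb5b and Akr7a3 were called with it, both lower in the jejunum, against 0.486%.

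Cyb5b, the cytochrome b5 of the outer mitochondrial membrane, fell from 4265, 5993 and 5929.9 to 2438, 1416 and 2623 in b/b rats, by 1.35 ± 0.26 (limma adjusted p = 0.0313). In +/b rats the difference was -1.19 ± 0.26 (limma adjusted p = 0.198, or 0.0339 with the rat block), the duodenum again lying above the jejunum on every array. Pparg, a nuclear receptor of fatty acids, fell from 775, 1235 and 1225 to 577, 397 and 451, by 1.14 ± 0.24 (limma adjusted p = 0.0394). Aldh1a1, an aldehyde dehydrogenase that makes retinoic acid, fell from 3000.1, 4361 and 4093 to 2112, 705 and 1455, by 1.53 ± 0.31 (limma adjusted p = 0.0344). Each of these 3 calls was lost without b/b duodenum replicate 2 (limma adjusted p from 0.154 to 0.220), replicate 3 (0.127 to 0.158) or b/b jejunum replicate 2 (0.125 to 0.243), among others, with the sign kept.

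Alas1, the rate-limiting enzyme of heme synthesis outside red cells, had 9338, 7141 and 5635 in the b/b duodenum against 4297, 3825 and 2919 in the +/b duodenum, all b/b arrays being higher. The difference was 0.99 ± 0.24, with the smallest p of these lists between the genotypes (unadjusted p = 0.00111, limma adjusted p = 0.554). It was called with the block of replicate number (limma adjusted p = 0.00513). That block pairs no groups of rats here, since a number names different rats in +/b and b/b. In the b/b jejunum it had 4564, 3297 and 3265, below the b/b duodenum on every array (-0.98 ± 0.24, limma adjusted p = 0.112, or 0.00189 with the rat block). Of the receptors of Cyp1a1 and Cyp3a genes, Ahr differed from the duodenum by 0.18 ± 0.52 in the b/b jejunum. Nr1i2, the pregnane X receptor, differed by 0.35 ± 0.21. Neither was called, and changes of the sizes measured could not be told from none. The SE of Nr1i2 was below that of Pparg (0.24), which was called at -1.14. Nqo1, a quinone reductase and another aryl hydrocarbon receptor target, had -1.20 ± 0.41 there, with overlapping groups (limma adjusted p = 0.301, or 0.0153 with the rat block).

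The block of rats added calls for 4 further genes of these lists between the b/b segments. Ugdh, which makes UDP-glucuronic acid, had -0.71 ± 0.21 (limma adjusted p = 0.226, or 0.0336 with the rat block). Aldh2, the mitochondrial aldehyde dehydrogenase, had -0.80 ± 0.23 (limma adjusted p = 0.190, or 0.0301 with the block). Both had the duodenum above the jejunum on every array. Akr7a3, an aldo-keto reductase of aflatoxin dialdehyde, had -0.71 ± 0.20 in b/b rats (limma adjusted p = 0.170, or 0.0173 with the block) and -0.71 ± 0.20 in +/b rats (0.456, or 0.0480 with the block). Hmox1, the heme oxygenase induced by heme, had -1.30 ± 0.53 with overlapping groups (limma adjusted p = 0.411, or 0.0270 with the block).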

How the data were processed

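The authors deposited 1 linear signal intensity for each probe set and array. MAS5 is named for 10 of the 12 arrays, per the submitters' processing notes, and the sources used here do not give its settings. All arrays were set to a common 2% trimmed mean of 500, so that +/b duodenum replicates 2 and 3 were raised 9.69-fold and 3.95-fold together with the noise of their dim probe sets. The 57 control probe sets were left out. Probe sets with a mean of at least 100 were tested (17694 of 31099) on log2(signal + 16), a pseudocount that understates differences of dim genes. limma 3.58.1 in R 4.3.3 fitted 4 group means over 12 arrays (eBayes with an intensity trend), two-sided, with Benjamini-Hochberg adjustment over all probe sets tested. The precision is limited by the 3 arrays per group.

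Within a genotype, the same number on a duodenum and a jejunum array marks 1 group of rats, per the series design. Their deviations from group means correlated at 0.19 to 0.28 in +/b and 0.16 to 0.38 in b/b rats, and the fit with this block is given where it changes a call. The rat block was a fixed effect between the segments and for the change of the genotype effect. Between the genotypes within a segment it was a random effect, with a consensus correlation of 0.31. Across genotypes the numbers share no rats, and arrays of one number correlated at -0.06 to 0.45.

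The members and gene lists were chosen with earlier results of these data known. Values on every array are given for members called in any of the 5 contrasts with or without a block, members whose groups were apart with a genotype difference of at least 1 (none was found), up to 10 members apart between segments, and Por. Cyp2d4, Alas1, Ahr, Nr1i2, Nqo1, Ugdh, Aldh2, Akr7a3 and Hmox1 were named after their values were seen. The fit was tested on simulated data. Alternatives covered the pseudocount, the signal minimum, scaling, the trend, array weights, 1 probe set per gene, blocks and arrays left out.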

Additional observations from a re-analysis of the deposited data

How the results depend on the processing

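Of the P450 call counts, 97 of 106 comparisons with an alternative stayed within 1.5 times the count, and 9 moved. In 4 of the 5 contrasts the count was 0, and a 0 that stayed 0 was scored as staying. Apart from moves with the values as deposited, every move was between the segments of b/b rats. Between the segments of b/b rats 2 members were called with array weights (Cyp2j3 brighter and Cyp2s1), beside 642 of all 17694 probe sets. With the replicate number as a replicate block 2 were called (Cyp2s1 and Cyp4b1), beside 398 of all. With the rat group as a replicate block 4 were called, beside 431 of all, and without a block 1, beside 135. Leaving out 1 array at a time, the number of members called ran from 0 to 2. It was 0 without b/b duodenum replicate 2 or without b/b jejunum replicate 2, and 2 without b/b duodenum replicate 1. Shares over all probe sets are not given for the arrays left out or for the values as deposited. The blocks changed no call of a member in the other 4 comparisons. With the values as deposited, where +/b duodenum replicates 2 and 3 are low by construction, 1 member (Cyp2s1) was called between the genotypes in the duodenum, 9 between the segments of +/b rats and 0 between those of b/b rats. Cyp2d2 then turned to 1.62 between the segments of +/b rats (limma adjusted p = 0.0499), and the members' median became 1.56 between the genotypes in the duodenum, 1.51 between the segments of +/b rats and -1.35 for the change of the genotype effect. Without both of these arrays, which leaves 1 +/b duodenum array that is assumed to vary like the other groups, the duodenum median was -0.46. Leaving out 1 array at a time, the members' median ran from -0.34 to -0.02 between the genotypes in the duodenum, from -0.04 to 0.21 in the jejunum, from -0.30 to 0.00 between the segments of +/b rats and from -0.02 to 0.30 between those of b/b rats. Cyb5b, Pparg and Aldh1a1 lost their calls without the intensity trend (limma adjusted p from 0.0945 to 0.101). Signal near background limits the dim members: the duodenum difference of Cyp2d3 was -1.65 with a pseudocount of 1 and -0.65 with 64.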
